A study of Homo sapiens with 18 samples.

Results

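The circadian clock genes described here are the 10 genes PER1, PER2, PER3, CRY1, CRY2, NR1D1, NR1D2, DBP, BHLHE40 and BHLHE41, and their members were taken as all probe sets annotated to those symbols. They numbered 25 of the 54613 probe sets of the array, and 10 of the 19775 genes that at least 1 probe set represented. The probe sets were taken by annotation alone, but the 10 genes were chosen with earlier results of these data known. Of the 25 probe sets, 18 listed the clock gene alone and 7 listed a second gene as well.

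The samples were 18 Affymetrix arrays, each of cultured cells from one of 3 human melanoma cell lines. A-485, an inhibitor of the acetyltransferase activity of the paired coactivators p300 and CBP, was given at a labelled dose of 3 mM (the unit is as labelled and could not be checked), and DMSO was the vehicle. The treated groups were SKMEL5 with A-485 for 6 h, SKMEL5 with A-485 for 24 h, WM2664 with A-485 for 6 h, WM2664 with A-485 for 24 h, A375 with A-485 for 6 h and A375 with A-485 for 24 h, with 1 array each. Each had its vehicle group of the same line and time, SKMEL5, WM2664 or A375 with DMSO for 6 or 24 h, with 2 arrays each. All groups shared RPMI medium with serum, and the series calls 2 of the lines sensitive and 1 resistant without naming them in the sources used here. The labels do not say that the 2 DMSO arrays of a group were separate cultures, nor when in a circadian cycle cells were collected, nor that their clocks were synchronised.

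The circadian clock is a feedback loop of transcription. CLOCK or NPAS2 pairs with BMAL1, binds E-boxes and activates the PER and CRY genes, whose proteins then repress that activation, as do BHLHE40 and BHLHE41 (DEC1 and DEC2), which bind E-boxes themselves. NR1D1 and NR1D2 (REV-ERB alpha and beta) close a second loop by repressing BMAL1, and DBP carries the rhythm to output genes through D-boxes, which its opponent NFIL3 also binds. Many peripheral cells in culture, melanoma cells included, express these genes, and in unsynchronised cultures the phases of single cells average out.

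The E-box with the letters CACGTG was looked for in the 250 bases before each RefSeq start (GRCh38.p14), a motif that reads the same on both strands. It was found in 2228 of 35116 promoters (6.34%) and in 4 of 13 promoters of the clock genes, those of BHLHE40, BHLHE41, NR1D2 and PER1. The 3 shown belong to genes with a probe set of their own whose signal was lower with A-485 in at least 1 line, and the capitals mark the E-box. BHLHE40 (chr3:4979187-4979436, plus strand) has it 245 bases before the start, BHLHE41 (chr12:26125038-26125287, minus strand) 48 bases before it, and NR1D2 (chr3:23945871-23946120, plus strand) at 155 and 105 bases.
BHLHE40: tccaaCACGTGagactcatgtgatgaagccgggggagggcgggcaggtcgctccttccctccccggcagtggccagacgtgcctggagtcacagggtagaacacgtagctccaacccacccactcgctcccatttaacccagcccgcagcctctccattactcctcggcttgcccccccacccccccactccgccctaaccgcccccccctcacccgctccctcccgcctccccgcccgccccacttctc
BHLHE41: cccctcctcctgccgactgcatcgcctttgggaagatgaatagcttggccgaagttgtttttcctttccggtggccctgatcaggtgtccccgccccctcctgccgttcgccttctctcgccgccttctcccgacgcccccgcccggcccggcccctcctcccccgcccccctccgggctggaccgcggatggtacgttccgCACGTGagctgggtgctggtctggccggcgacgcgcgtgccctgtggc
NR1D2: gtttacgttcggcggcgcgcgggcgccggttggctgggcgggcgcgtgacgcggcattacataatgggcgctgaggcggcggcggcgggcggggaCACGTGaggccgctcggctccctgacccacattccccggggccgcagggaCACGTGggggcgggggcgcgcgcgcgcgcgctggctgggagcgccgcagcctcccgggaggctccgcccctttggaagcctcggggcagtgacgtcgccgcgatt
NR1D2 has a second start in RefSeq, whose window holds no CACGTG, and neither do the windows of PER3 and DBP. The core TGACG of the cAMP response element, searched on both strands, was in 21.2% of all promoters and in those of CRY1, CRY2, NR1D2 and PER2. The letters AGGTCA, which ROR and REV-ERB proteins bind, was in 12.1% of all promoters and in those of CRY2 and PER1. A match describes letters in this window and is no measure of binding.

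Values below are intensities after quantile scaling of the arrays, raised to a floor of 32 where they were lower. Differences are on the log2 scale from a limma fit across all 26385 probe sets whose mean log2 intensity was at least 5.2, with p-values adjusted over all of them by Benjamini-Hochberg, and a difference was called at an adjusted p under 0.05. Because an A-485 group is 1 array, its error was borrowed from the 6 DMSO pairs, and the lone array is assumed to vary like them. In cultures measured whole, fewer cells with a transcript and less transcript per cell cannot be told apart. Replicate DMSO arrays correlated at 0.986 to 0.992. Among the 18 arrays, 3 stood apart: transcripts that another line has and their own line lacks read above their usual level there. WM2664 DMSO 6 h replicate 1 held 1.67% of the SKMEL5 level, A375 DMSO 6 h replicate 1 held 0.77% of the SKMEL5 level and WM2664 DMSO 24 h replicate 2 held 0.81% of the A375 level. The other 33 pairs of array and line lay between -0.574% and 0.277%. Among melanocyte markers, TYR was 4867 to 6055 in SKMEL5, 5611 to 8702 in WM2664 and 32 to 62.1 in A375, and S100B was 32 to 33.5 in A375. The other 5 measured melanocyte markers were above the floor on at least some A375 arrays, with SOX10 at 113 to 913, MITF at 159 to 468, PMEL at 38.9 to 223, MLANA at 32 to 264 and TYRP1 at 32 to 179. In A375, 3 of the 7 measured markers, MLANA, TYR and TYRP1, were at the floor on both DMSO arrays of 24 h. They were also at the floor on both A-485 arrays, so their highest A375 readings came from DMSO arrays of 6 h. A375 DMSO 6 h replicate 1 is among the 3 arrays that stood apart, and its part in those readings was not tested. Of 4 leukocyte markers, PTPRC and CD14 were at the floor on all 18 arrays, CD3E did not exceed 33.6, and LYZ was 54.7 to 92.4 in A375. Some fibroblast and epithelial markers were bright in single lines, LUM at 3511 to 4821 and CDH1 at 213 to 810 in SKMEL5, COL1A2 at 2639 to 5503 in WM2664 and KRT14 at 86.4 to 336 in A375, and their part in the clock gene values was not tested.

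Of the 25 probe sets, 14 passed the filter on dim signal and were tested, and 12 of the 14 listed the clock gene alone. These covered 7 genes, and for PER1, NR1D1 and CRY2 no probe set listing the gene alone was tested. Of the 11 not tested, 7 were below the floor on every array. CRY2, a repressor that works beside CRY1, had 1 probe set and it did not exceed an intensity of 24.1 on any array, so its level was not measured here. A probe set dim in one line passed through another line where it was bright, which held for PER3 and BHLHE41, so the counts below are a description.

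The lines differed in most clock genes before any treatment. In DMSO, 8 of the 14 probe sets differed between SKMEL5 and WM2664, beside 64.7% of all probe sets, and 10 of 14 differed between A375 and SKMEL5, beside 73.1%. Between A375 and WM2664, 10 of 14 differed, again beside 73.1% of all. These counts were close to what the whole array showed.

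BHLHE41 and BHLHE40, the E-box repressors, differed widely between lines. BHLHE41 (221530_s_at) ran from 46.4 to 70.6 over the 4 A375 DMSO arrays, with a median of 50.9, from 1202 to 1354 over those of SKMEL5, with a median of 1276, and from 279 to 331 in WM2664, with a median of 283. No 2 lines overlapped. The A375 minus SKMEL5 difference was -4.56 ± 0.12 (SE, adjusted p = 5.65e-09), A375 minus WM2664 was -2.44 ± 0.12 (2.69e-07) and SKMEL5 minus WM2664 was 2.12 ± 0.12 (1e-06). BHLHE40 (201170_s_at) was also lowest in A375, at 182 to 365 with a median of 273, against 1793 to 2134 in SKMEL5 and 3317 to 3608 in WM2664. There the order of SKMEL5 and WM2664 was the opposite of that of BHLHE41, with SKMEL5 minus WM2664 at -0.86 ± 0.05 (1.98e-06) and A375 minus WM2664 at -3.74 ± 0.05 (1.84e-10).

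PER3, a PER family member not needed for the core rhythm in mice, was read by 221045_s_at at 170 to 226 in SKMEL5 DMSO arrays and 137 to 191 in WM2664 DMSO arrays. On all 6 A375 arrays, with either treatment, it was at the floor, so a fall in A375 could not have been seen and the distance of A375 from the other lines is known only as a bound. PER2, a core repressor, was 114 to 121 in SKMEL5, 82.2 to 105 in A375 and 51.9 to 72.2 in WM2664 DMSO arrays (205251_at), which gave 3 levels without overlap. The PER2 differences were 0.90 ± 0.10 for SKMEL5 minus WM2664 (adjusted p = 6.44e-05), -0.37 ± 0.10 for A375 minus SKMEL5 (0.0089) and 0.52 ± 0.10 for A375 minus WM2664 (0.00138).

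CRY1, the core repressor that partners the PER proteins, was highest in A375. Its probe set 209674_at read 1140 to 1310 in A375, 574 to 716 in SKMEL5 and 577 to 649 in WM2664 DMSO arrays. The A375 arrays lay above all others, at 0.93 ± 0.06 over SKMEL5 (adjusted p = 1.38e-06) and 0.97 ± 0.06 over WM2664 (1.03e-06), whereas SKMEL5 minus WM2664 was 0.04 ± 0.06 (0.594). NR1D2 (209750_at) overlapped across the lines, at 265 to 336 in A375, 270 to 495 in SKMEL5 and 345 to 456 in WM2664, and no pair of lines differed past the threshold. One SKMEL5 array decided that for SKMEL5 minus WM2664, which was 0.01 (0.975) with all arrays and -0.21 (0.0271) without SKMEL5 DMSO 24 h replicate 1. DBP (209782_s_at) was dim in every line, at 35.1 to 72.1 in A375, 67.3 to 82.7 in SKMEL5 and 50.8 to 80.6 in WM2664, and lower in A375 than in SKMEL5 by a difference of -0.62 ± 0.12 (0.00156).

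With vehicle alone, little separated 24 h from 6 h. In SKMEL5 and in WM2664, limma called 0 of the 14 probe sets, beside 6.22% and 0.713% of all, and 2 in each line had an unadjusted p under 0.05. In A375 it called 1 of 14, beside 1.03% of all. That was BHLHE40, at 343 and 365 after 24 h against 182 and 204 after 6 h, a difference of 0.88 ± 0.08 (adjusted p = 0.00623), which was 0.80 (0.101) without the 3 arrays that stood apart. Averaged over lines, 2 of 14 were called, beside 9.66% of all, BHLHE40 at 0.39 ± 0.04 (0.00638) and DBP at 0.41 ± 0.10 (0.039). BHLHE40 was 0.44 (0.201) without scaling and 0.37 (0.0664) without the 3 arrays that stood apart, and the DBP call was lost under 17 of 28 alternatives, among them leaving out any of 11 single arrays (adjusted p 0.0521 to 0.087).

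**Figure D1:**
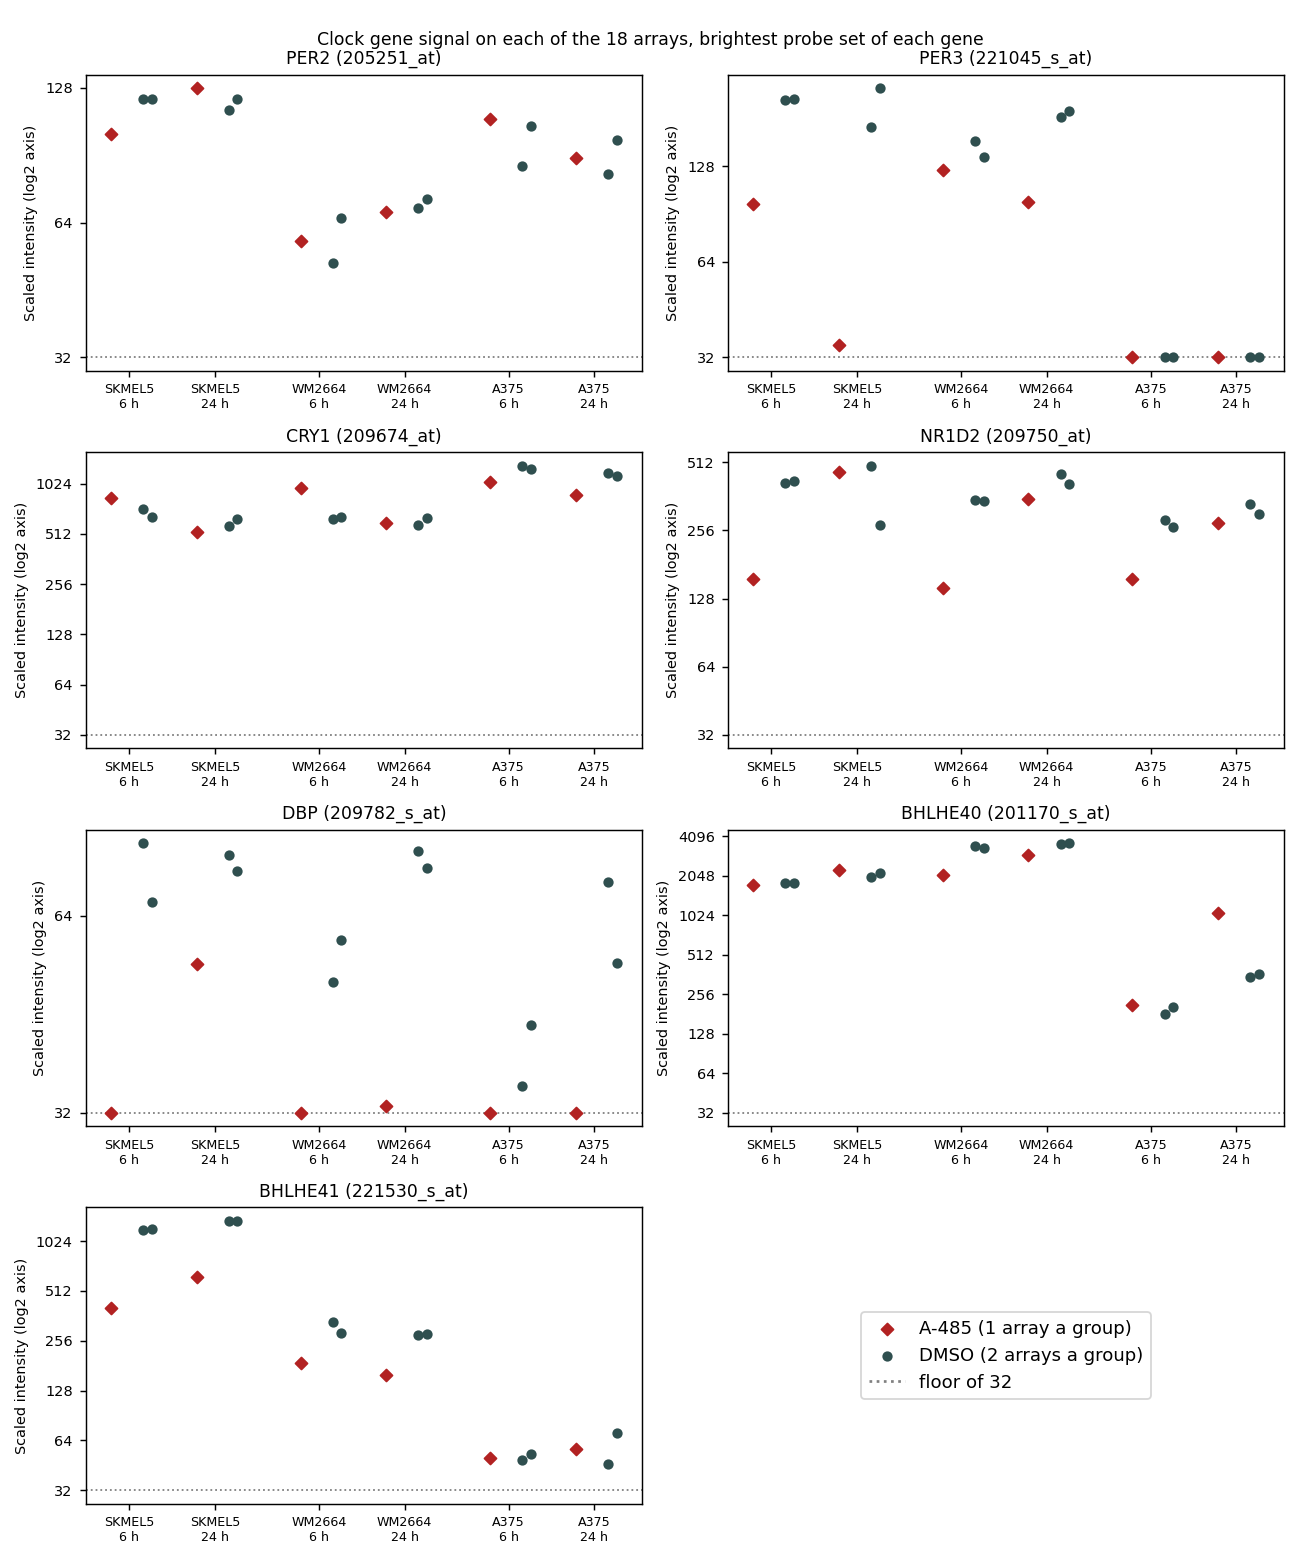
Scaled intensity (log2 axis) of the brightest probe set of each of 7 clock genes on all 18 arrays, by line and time, with A-485 arrays as red diamonds left of DMSO arrays as dark circles and the floor of 32 dotted. NR1D2 lay below both DMSO arrays in all 3 lines at 6 h, PER3 was at the floor on every A375 array, and BHLHE40 in A375 reached 1056 with A-485 at 24 h.

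A-485 at 6 h was followed mostly by lower clock gene signal, which differed by line. In SKMEL5, 7 of the 14 probe sets were called and all 7 were lower, beside 17.6% of all probe sets called and 8.82% called lower. In WM2664, 8 were called, 7 lower and 1 higher, beside 22.1% of all called, 10.5% lower and 11.5% higher. In A375, limma called 0 of 14, beside 8.94% of all, while 3 had an unadjusted p under 0.05 and between 0 and 1 were called over 28 alternative settings. Averaged over the lines, 11 were called, 10 lower and 1 higher, beside 34.5% of all called, 15.6% lower and 18.9% higher, with a median difference of -0.43 over the 14 and 0.03 over all probe sets. Some genes had several probe sets, and the lower calls came from 4 genes in SKMEL5, 4 in WM2664 and 5 over the mean of lines. The splits into higher and lower hold for scaled arrays. Without scaling the median of all probe sets moved to 0.32 in SKMEL5 and 0.45 in WM2664 at 6 h, and the share of called probe sets that were higher became 76.3% and 88.2%, against 50% and 52.2% with scaling.

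At 24 h the called members were all lower in SKMEL5 and WM2664 and split in A375. In SKMEL5, 5 of 14 were called, all lower, beside 31% of all probe sets called and 14.3% called lower, and in WM2664 6 were called, all lower, beside 28.3% called and 13.4% called lower. In A375, 5 were called, 3 higher and 2 lower, beside 13% of all called, 6.05% higher and 6.95% lower. Over the mean of lines, 8 were called, 7 lower and 1 higher, beside 43.3% of all called, 19.8% lower and 23.5% higher, with medians of -0.26 over the 14 and 0.03 over all probe sets. The SKMEL5 share at 24 h lay near that of all probe sets. Counted as genes, the lower calls at 24 h came from 2 in SKMEL5 (BHLHE41 and PER3), 4 in WM2664, 2 in A375 and 4 over the mean of lines. The 3 higher calls in A375 came from 2 genes.

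NR1D2, the REV-ERB beta repressor of BMAL1, was lower at 6 h in every line and near its vehicle level at 24 h. At 6 h its probe set 209750_at read 156 in SKMEL5 with A-485, against 416 and 422 with DMSO. In WM2664 it read 142 with A-485, against 350 and 345 with DMSO, and in A375 it read 157 with A-485, against 284 and 265 with DMSO. Each A-485 array was below both of its DMSO arrays. The 3 A-485 arrays read 142 to 157, and the DMSO arrays of 6 h ran from 265 to 422. Whether the lines came closer to each other with A-485 was not tested. NR1D2 fell in SKMEL5 by a difference of -1.42 ± 0.28 (adjusted p = 0.0116, 2.68-fold) and in WM2664 by -1.29 ± 0.28 (0.0141, 2.44-fold), while A375 gave -0.81 ± 0.28 (0.139), past no threshold. Without the 3 arrays that stood apart, which leaves 3 DMSO pairs to set the spread, the SKMEL5 and WM2664 values were -1.42 (0.0941) and -1.28 (0.141). The mean over lines, -1.17 ± 0.16 (0.00102), was called under each of 30 alternatives, at -1.36 to -0.86.

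After 24 h NR1D2 read 463 in SKMEL5 with A-485, against 495 and 270 with DMSO, 354 in WM2664 with A-485, against 456 and 412 with DMSO, and 276 in A375 with A-485, against 336 and 302 with DMSO. The A-485 array was still below both DMSO arrays in WM2664 and A375 and between them in SKMEL5. The mean difference was -0.05 ± 0.16 (adjusted p = 0.818), with an interval of -0.43 to 0.32. From 6 h to 24 h the response moved by 1.12 ± 0.23 (0.017) over lines, which was 0.80 (0.151) when the SKMEL5 A-485 array of 6 h, or that of 24 h, was left out, and 1.07 (0.14) without the 3 arrays that stood apart. A second NR1D2 probe set, 225768_at, gave -1.01 ± 0.28 at 6 h (0.0257) and -0.06 ± 0.28 at 24 h (0.884), and its 6 h call was lost when any of 5 single arrays was left out (-0.99 to -0.85, adjusted p 0.0542 to 0.114).

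DBP, the D-box activator and a standard readout of clock output, was below both DMSO arrays in all 6 pairs of line and time. At 6 h its 209782_s_at signal was at the floor with A-485 in all 3 lines. The DMSO arrays read 82.7 and 67.3 in SKMEL5, 50.8 and 58.9 in WM2664 and 35.1 and 43.5 in A375, so a change could be measured only as a bound, largest where DMSO was brightest. DBP fell at least 2.33-fold in SKMEL5 (-1.22 ± 0.21, adjusted p = 0.00583) and at least 1.71-fold in WM2664 (-0.77 ± 0.21, 0.0309), and A375 gave -0.29 ± 0.21 (0.521). The WM2664 call ended without WM2664 DMSO 6 h replicate 2 (-0.67, 0.119), and without the 3 arrays that stood apart (-0.88, 0.103).

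At 24 h DBP read 54 in SKMEL5 with A-485, against 79.3 and 75 with DMSO, which was no call (-0.51 ± 0.21, adjusted p = 0.0983). In WM2664 it read 32.8 with A-485, against 80.6 and 75.7 with DMSO, and fell, with a difference of -1.25 ± 0.21 (0.00319). In A375 it was at the floor with A-485, against 72.1 and 54.2 with DMSO, a fall of at least 1.95-fold (-0.97 ± 0.21, 0.0196), with -0.76 (0.0688) when A375 DMSO 24 h replicate 1 was left out and -0.97 (0.082) without the 3 arrays that stood apart. Over the lines DBP was lower by -0.76 ± 0.12 at 6 h (0.00183) and by -0.91 ± 0.12 at 24 h (0.000538). Both calls were lost with a floor of 64, close to the DMSO signal itself. The second DBP probe set, 209783_at, was above the floor on 1 DMSO array and was not tested.

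PER3 fell most in SKMEL5, and more at 24 h than at 6 h. In SKMEL5, 221045_s_at read 97.4 with A-485 at 6 h, against 207 and 209 with DMSO, and 35.1 with A-485 at 24 h, against 170 and 226 with DMSO. The A-485 values were below both vehicle arrays, and the one at 24 h was near the floor. The falls were -1.09 ± 0.15 (adjusted p = 0.00238, 2.14-fold) and -2.48 ± 0.15 (1.62e-05, 5.58-fold), and the response moved by -1.38 ± 0.22 between the times (0.00672), or -1.38 (0.0727) without the 3 arrays that stood apart. In WM2664 it read 125 with A-485 at 6 h, against 154 and 137 with DMSO, and 98.9 with A-485 at 24 h, against 183 and 191 with DMSO. WM2664 gave -0.22 ± 0.15 at 6 h (0.374) and fell, with a difference of -0.92 ± 0.15 at 24 h (0.00325), or -0.88 (0.059) without the 3 arrays that stood apart. The dimmer PER3 probe set 1555131_a_at was also lower in SKMEL5, with -0.86 ± 0.20 at 6 h (0.0212) and -1.06 ± 0.20 at 24 h (0.00531), the first of which was -0.72 (0.0845) without SKMEL5 DMSO 6 h replicate 2. Over the 3 lines, with A375 at the floor, PER3 was lower by -0.44 ± 0.09 at 6 h (0.00604), or -0.11 (0.515) without SKMEL5 A-485 6 h replicate 1, and by -1.13 ± 0.09 at 24 h (3.64e-05).

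PER2 did not change past the threshold in any line at any time. Its 205251_at signal at 6 h was 101 in SKMEL5 with A-485, against 121 and 121 with DMSO, 58.3 in WM2664 with A-485, against 51.9 and 65.5 with DMSO, and 109 in A375 with A-485, against 85.7 and 105 with DMSO. At 24 h it was 128 in SKMEL5 with A-485, against 114 and 121 with DMSO, 67.6 in WM2664 with A-485, against 69 and 72.2 with DMSO, and 89.4 in A375 with A-485, against 82.2 and 97.9 with DMSO. The A-485 array was above both DMSO arrays in 2 pairs, below both in 2 and between them in 2. Averaged over lines the difference was -0.02 at 6 h, with an interval of -0.25 to 0.21, and 0.02 at 24 h, with an interval of -0.21 to 0.25.

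CRY1 moved little and not alike in the lines. At 6 h in WM2664 it read 958 with A-485, against 631 and 649 with DMSO, and rose by 0.58 ± 0.10 (adjusted p = 0.00553, 1.5-fold), which stayed called under each of 28 alternatives at 0.53 to 1.03. In SKMEL5 it read 834 with A-485, against 716 and 648 with DMSO (0.29 ± 0.10, 0.0938), and in A375 1040 with A-485, against 1310 and 1259 with DMSO (-0.30 ± 0.10, 0.128). The A375 minus WM2664 difference of those responses was -0.89 ± 0.15 (0.00877), or -0.84 (0.0855) without the 3 arrays that stood apart. At 24 h the WM2664 A-485 array, at 596, lay between its DMSO arrays of 577 and 637, and SKMEL5 read 528 with A-485, against 574 and 631 with DMSO. A375 read 879 with A-485, against 1186 and 1140 with DMSO, and fell, with a difference of -0.40 ± 0.10 (0.0394), a call lost when any of 6 single arrays was left out (-0.43 to -0.38, adjusted p 0.057 to 0.121). The mean over lines was 0.19 ± 0.06 at 6 h (0.0401) and was lost when any of 9 single arrays was left out, reaching -0.01 (0.985) without WM2664 A-485 6 h replicate 1.

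BHLHE41 fell in SKMEL5 and WM2664 and was too dim in A375 for a fall to be followed far. At 6 h 221530_s_at read 401 in SKMEL5 with A-485, against 1202 and 1203 with DMSO, and 188 in WM2664 with A-485, against 331 and 284 with DMSO. At 24 h it read 620 in SKMEL5 with A-485, against 1348 and 1354 with DMSO, and 158 in WM2664 with A-485, against 279 and 282 with DMSO. The A-485 arrays were below both vehicle arrays in all 4 of these pairs. SKMEL5 fell, with differences of -1.59 ± 0.21 at 6 h (adjusted p = 0.00188, 3-fold) and -1.13 ± 0.21 at 24 h (0.00496, 2.18-fold), and the 24 h fall was called under each of 28 alternatives. WM2664 fell, with differences of -0.70 ± 0.21 at 6 h (0.047) and -0.83 ± 0.21 at 24 h (0.0208). The 6 h WM2664 call was lost when any of 10 single arrays was left out (-0.82 to -0.59, adjusted p 0.0658 to 0.155), the 24 h call without WM2664 DMSO 24 h replicate 1 (-0.83, 0.0593) or replicate 2 (-0.82, 0.0642), and without the 3 arrays that stood apart both were lost, at -0.59 (0.28) and -0.82 (0.146). Over the 3 lines the difference was -0.77 ± 0.12 at 6 h (0.00183), or -0.37 (0.112) without SKMEL5 A-485 6 h replicate 1, and -0.66 ± 0.12 at 24 h (0.00307), or -0.42 (0.0641) without SKMEL5 A-485 24 h replicate 1.

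In A375, BHLHE41 read 49.9 with A-485 at 6 h, against 48.8 and 53 with DMSO, and 56.4 with A-485 at 24 h, against 46.4 and 70.6 with DMSO, without separation. A second probe set, 223185_s_at, read 97.5 in SKMEL5 with A-485 at 6 h, against 466 and 425 with DMSO, and 166 with A-485 at 24 h, against 378 and 269 with DMSO. It fell in SKMEL5 with differences of -2.19 ± 0.18 at 6 h (adjusted p = 0.000153) and -0.94 ± 0.18 at 24 h (0.00492), and was at the floor on all A375 arrays. The third, 231243_s_at, fell in SKMEL5 and WM2664 at both times, where leaving out any of 9 single arrays ended the WM2664 24 h call (-0.56 to -0.35, adjusted p 0.0513 to 0.102), but rose in A375 at 24 h, where it read 54.4 with A-485 against the floor on both DMSO arrays. That was at least 1.7-fold (0.76 ± 0.17, 0.0219), a call lost without A375 DMSO 24 h replicate 1 (0.0721) or replicate 2 (0.0709), and 221530_s_at at -0.02 ± 0.21 did not share it.

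BHLHE40 did not move alike in the lines. In SKMEL5 201170_s_at read 1732 with A-485 at 6 h, against 1799 and 1793 with DMSO, and 2246 with A-485 at 24 h, against 1995 and 2134 with DMSO. Those differences, -0.05 ± 0.10 (adjusted p = 0.818) and 0.12 ± 0.10 (0.389), were not called. In WM2664 it read 2071 with A-485 at 6 h, against 3462 and 3317 with DMSO, and fell, with a difference of -0.71 ± 0.10 (0.00139, 1.64-fold). At 24 h WM2664 read 2914 with A-485, against 3569 and 3608 with DMSO (-0.30 ± 0.10, 0.0475), a call that 8 single arrays ended (-0.31 to -0.29, adjusted p 0.0555 to 0.112).

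In A375 BHLHE40 went the other way. It read 211 with A-485 at 6 h, against 182 and 204 with DMSO (0.13 ± 0.10, adjusted p = 0.528), and 1056 with A-485 at 24 h, against 343 and 365 with DMSO. The 24 h array was above every other A375 array and still below all SKMEL5 and WM2664 arrays. BHLHE40 rose 2.98-fold there, by 1.58 ± 0.10 (2.68e-05), called under each of 28 alternatives at 1.53 to 1.62, and the dimmer 201169_s_at rose by 1.03 ± 0.20 (0.0124), or 0.90 (0.0563) without A375 DMSO 24 h replicate 1. The response at 24 h differed between A375 and SKMEL5 by 1.46 ± 0.13 (0.000222) and between A375 and WM2664 by 1.88 ± 0.13 (8.16e-05). The mean over lines was 0.47 ± 0.05 at 24 h (0.000305) and -0.09 (0.328) without A375 A-485 24 h replicate 1, and the mean at 6 h, -0.21 ± 0.05 (0.019), was 0.04 (0.749) without WM2664 A-485 6 h replicate 1 and 0.02 (0.912) without scaling.

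**Figure D2:**
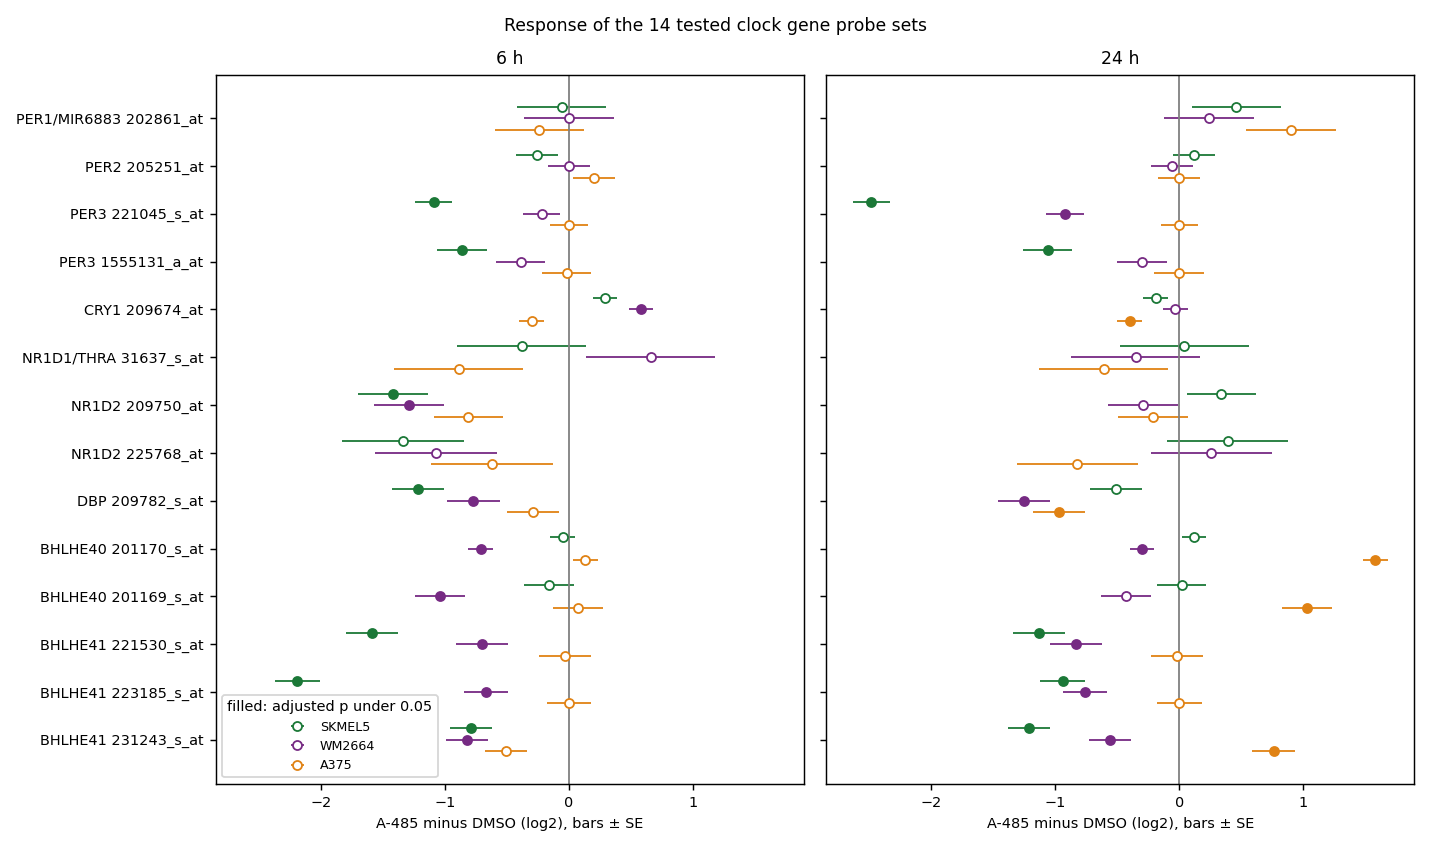
A-485 minus DMSO (log2, bars ± SE) of the 14 tested clock gene probe sets in each line, at 6 h and 24 h, with filled points for an adjusted p under 0.05. NR1D2 and DBP were left of 0 in all 3 lines at 6 h, and BHLHE40 in A375 at 24 h, at 1.58, stood farthest to the right.

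For PER1, the PER gene that responds fastest to outside signals, all 4 probe sets list MIR6883 as well, a microRNA gene that the RefSeq table places within the span of PER1. They are therefore described as PER1/MIR6883. The tested one, 202861_at, read 72.2 in A375 with A-485 at 24 h, against 32 and 46.9 with DMSO, and 43.6 with A-485 at 6 h, against 36.7 and 72.2 with DMSO. At 24 h it was above both DMSO arrays in the other lines too, at 63.2 in SKMEL5 with A-485, against 50.9 and 41.8 with DMSO, and at 37.7 in WM2664 with A-485, against the floor on both DMSO arrays. In A375 the groups overlapped at 6 h and not at 24 h, and neither difference was called (-0.24 ± 0.36, adjusted p = 0.832, and 0.90 ± 0.36, 0.157). The probe set 36829_at, just under the filter and so not tested, read 112 in A375 with A-485 at 6 h and 94.5 with A-485 at 24 h, and both DMSO arrays at each time were at the floor. That was at least 3.51-fold at 6 h and at least 2.95-fold at 24 h, or 1.81 and 1.56 on the log2 scale. No p-value is given, because the probe set did not pass the filter and was not in the fit. Its DMSO arrays, at the floor on all but 1, also show almost no spread of their own. In SKMEL5 and WM2664 this probe set was at the floor with A-485 at both times, and it was above the floor on 1 DMSO array of the series, at 36.1 (SKMEL5 DMSO 6 h replicate 1). The 2 probe sets did not show the same thing in A375 at 6 h, and the remaining 2 were below the floor on every array.

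The NR1D1 probe sets list THRA too, a thyroid hormone receptor gene. The tested NR1D1/THRA probe set 31637_s_at was noisy, with WM2664 DMSO 6 h arrays at 93.6 and 32. In A375 it read 57.5 with A-485 at 6 h, against 112 and 101 with DMSO, and 82.4 with A-485 at 24 h, against 113 and 141 with DMSO. It was below both DMSO arrays in 4 of the 6 pairs of line and time, above both in 0, and was called in 0 of the 6, with differences between -0.89 ± 0.52 and 0.66 ± 0.52. No unadjusted p among the 6 was under 0.05.

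**Figure D3:**
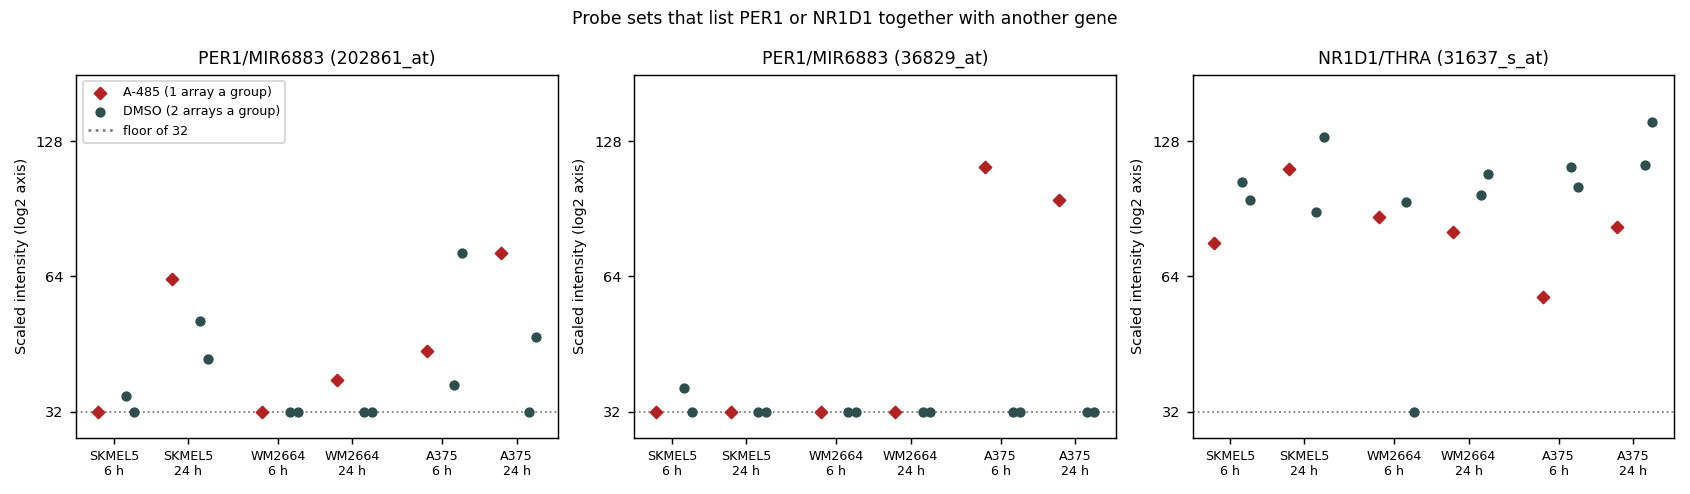
Scaled intensity (log2 axis) on all 18 arrays of 2 probe sets that list PER1 with MIR6883 and 1 that lists NR1D1 with THRA, with A-485 as red diamonds left of DMSO as dark circles and the floor of 32 dotted. The 36829_at signal was 112 and 94.5 on the A375 A-485 arrays and at the floor on the A375 DMSO arrays, a separation that 202861_at did not show at 6 h.

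The change of the response with time was called for 3 of 14 probe sets in SKMEL5, beside 8.64% of all probe sets, for 2 in A375, beside 1.64%, and for 0 in WM2664, beside 6.29%. In WM2664, 4 had an unadjusted p under 0.05, and up to 3 were called over 27 alternatives. Over the mean of lines 5 were called, beside 14% of all. NR1D2 and PER3 moved in opposite directions in SKMEL5, with 1.76 ± 0.40 (adjusted p = 0.0333) for NR1D2 and -1.38 ± 0.22 (0.00672) for PER3. The NR1D2 call was lost when any of 10 single arrays was left out, at adjusted p 0.0529 to 0.08.

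Differences of the response between lines at 6 h were called for 2 of 14 probe sets for SKMEL5 minus WM2664 (3.48% of all), 3 for A375 minus SKMEL5 (6.46%) and 2 for A375 minus WM2664 (7.51%). At 24 h they were called for 1 (9.8% of all), 7 (16.9%) and 4 (14.5%) in the same order of lines, and these comparisons share arrays with each other. BHLHE41 and PER3 gave A375 minus SKMEL5 differences of 1.56 ± 0.30 (adjusted p = 0.0188) and 1.09 ± 0.22 (0.0217) at 6 h. For PER3 A375 was at the floor, so its value gives the size of the SKMEL5 fall alone. For BHLHE41 the A375 response at 6 h was -0.03 (interval -0.51 to 0.46), with 221530_s_at above the floor on all A375 arrays. With A375 DMSO arrays at 48.8 and 53, a 3-fold fall like that of SKMEL5 would still have gone below the floor. NR1D2 was not called between any 2 lines at 6 h, with A375 minus SKMEL5 at 0.61 (interval -0.31 to 1.54) and A375 minus WM2664 at 0.48 (interval -0.44 to 1.41), which leaves room for differences as large as the fall itself.

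Other genes of the loop were read from 1 probe set each, the brightest that listed the gene alone, and are given as the mean over lines beside the same share over 12124 gene representatives. At 6 h 22.4% of these were called higher and 16.2% lower, and at 24 h 26.5% and 22.5%. A mean over lines does not say that each line moved, here and in the lists below. Of the activators and second-loop genes, 8 of 12 were tested, and 2 were higher and 2 lower at each time. BMAL1, the partner of CLOCK and the gene that NR1D2 represses, rose by 0.47 ± 0.07 at 6 h (adjusted p = 0.00128) and was at -0.13 ± 0.07 at 24 h (0.157). At 6 h BMAL1 was at 0.95 ± 0.12 in SKMEL5 and 0.48 ± 0.12 in WM2664. In A375 BMAL1 did not rise, at -0.02 ± 0.12 at 6 h and -0.60 ± 0.12 at 24 h. BMAL2, the paralogue of BMAL1, rose over the mean of lines by 0.61 ± 0.17 (0.0266) and 0.89 ± 0.17 (0.00395). NPAS2, which can take the place of CLOCK, fell, with differences of -0.74 ± 0.06 (5.42e-05) and -0.95 ± 0.06 (9.93e-06), and CLOCK itself was at -0.06 ± 0.08 at 6 h (0.599) and rose by 0.34 ± 0.08 at 24 h (0.00797). NFIL3, the D-box repressor that opposes DBP, was at -0.24 ± 0.07 (0.0275) at 6 h, which turned to 0.08 (0.718) without scaling, and at -0.44 ± 0.07 (0.0012) at 24 h, where it was -0.38 (0.115) without scaling. NPAS2 at 6 h was -0.43 (0.0514) and CLOCK at 24 h 0.43 (0.0572) without scaling, and BMAL2 at 6 h was 0.70 (0.0645) without the 3 arrays that stood apart.

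Modifiers of clock proteins were called higher more often than lower. Of 17 tested of 20, 7 rose and 0 fell at 6 h, and 9 rose and 1 fell at 24 h. Their median difference was 0.16 at 6 h and 0.20 at 24 h, beside 0.04 and 0.03 over all gene representatives. Without scaling, 8 rose and 0 fell at 6 h, and 5 rose and 0 fell at 24 h. All probe sets then had a median of 0.27 at 6 h, with 85.6% of the called ones higher, and of 0.07 at 24 h, with 56.7% higher. With scaling to the 75th percentile, 5 rose and 0 fell at 6 h, and 8 rose and 1 fell at 24 h. Leaving out the 3 arrays that stood apart gave medians of 0.14 and 0.19. SIRT1, a deacetylase that acts on BMAL1 and PER2, rose by 0.90 ± 0.11 (adjusted p = 0.000517) and 0.49 ± 0.11 (0.00783), and KDM5A, a histone demethylase that coactivates CLOCK and BMAL1, by 0.59 ± 0.04 (4.7e-05) and 0.57 ± 0.04 (3.66e-05). PRKAA2, a catalytic subunit of AMPK, which marks CRY1 for degradation, rose by 0.43 ± 0.13 (0.039) and 0.66 ± 0.13 (0.00486). CSNK2A1, a catalytic subunit of casein kinase 2, rose by 0.35 ± 0.04 (0.000552) at 6 h and 0.17 ± 0.04 (0.0148) at 24 h, the second of which was 0.14 (0.0736) with scaling to the 75th percentile. BTRC, the F-box protein that targets PER proteins, rose by 0.33 ± 0.06 (0.00429) and 0.44 ± 0.06 (0.00075). The 1 that fell, at 24 h, was WDR5, a histone methyltransferase subunit found with PER complexes, at -0.37 ± 0.06 (0.00233), named after its value was seen, and it was -0.27 (0.227) without scaling.

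**Figure D4:**
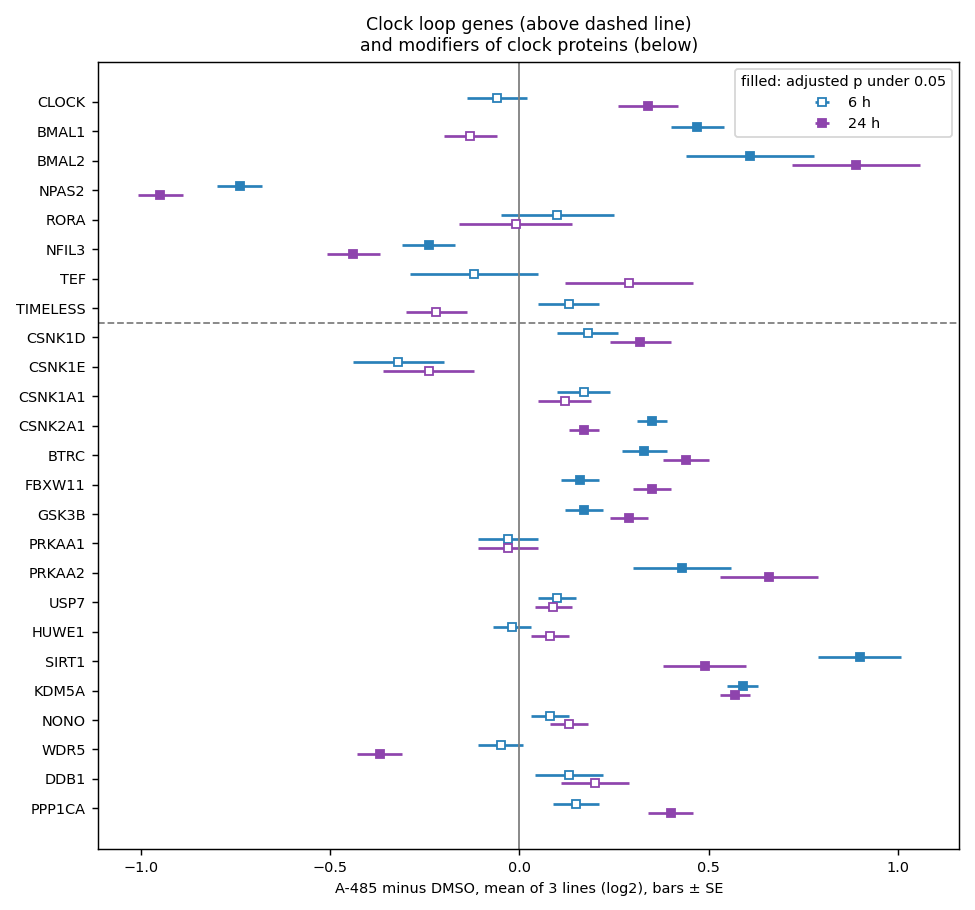
A-485 minus DMSO averaged over 3 lines (log2, bars ± SE) for 8 loop genes above the dashed line and 17 modifiers of clock proteins below it, at 6 h in blue and 24 h in purple, filled where the adjusted p was under 0.05. NPAS2 was lowest at both times, and SIRT1 at 6 h and BMAL2 at 24 h lay near 0.9.

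Among 13 output genes, 11 were tested, of which 4 rose and 4 fell at 6 h, and 2 rose and 5 fell at 24 h. Without scaling 5 rose and 2 fell at 6 h, with a median of 0.18, against -0.09 with scaling. PPARGC1A, a coactivator of metabolic genes and of RORs, fell, with differences of -1.85 ± 0.07 (adjusted p = 1.51e-06) and -1.56 ± 0.07 (2.73e-06). WM2664 gave -3.13 ± 0.12 at 6 h, and A375 gave 0.00 ± 0.12 at both times. Arrays held at the floor give this A375 value too, so a fall there may not have been measurable. The means over lines include it. CDKN1A, the cell cycle inhibitor p21, rose by 0.85 ± 0.05 (1.14e-05) and 0.93 ± 0.05 (4.84e-06). KLF9, a transcription factor induced by glucocorticoids, fell, with differences of -0.97 ± 0.06 (1.74e-05) at 6 h and -0.40 ± 0.06 (0.00104) at 24 h, the second of which was -0.33 (0.111) without scaling. NAMPT, which makes NAD for sirtuins, fell, with a difference of -0.57 ± 0.05 (0.000142) at 6 h, or -0.29 (0.114) without scaling. At 24 h TSC22D3, known as GILZ, fell, with a difference of -0.78 ± 0.17 (0.00607), and KLF10, a Krüppel-like factor, rose by 0.77 ± 0.06 (5.23e-05). TSC22D3 was -0.79 (0.0502) without the 3 arrays that stood apart, and with all arrays it was -0.05 ± 0.29 in A375 at 24 h.

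PER1, NR1D2 and the BHLHE genes also respond to cAMP, glucocorticoid and hypoxia signals, so genes known for those responses were read beside them. Of 16 tested CREB and glucocorticoid responsive genes of 20, 3 rose and 7 fell at 6 h, and 5 rose and 5 fell at 24 h. FOS rose by 1.57 ± 0.11 (adjusted p = 3.17e-05) and 1.32 ± 0.11 (5.09e-05), NR4A2 by 1.08 ± 0.08 (3.99e-05) and 1.63 ± 0.08 (3.43e-06), whereas SGK1, a kinase that glucocorticoids induce, fell, with differences of -1.09 ± 0.05 (2.53e-06) and -0.52 ± 0.05 (7.61e-05). CRTC2, a CREB coactivator, rose by 0.72 ± 0.13 (0.00313) at 24 h, and KLF9 and TSC22D3, given above, belong to this list as well. Without scaling the list held 4 that rose and 2 that fell at 6 h. Of 9 tested hypoxia responsive genes of 12, 2 rose and 3 fell at 6 h, and 4 rose and 2 fell at 24 h. ADM, a secreted vasodilator, fell, with differences of -0.72 ± 0.05 (3.47e-05) and -0.59 ± 0.05 (6.27e-05), while ANKRD37 rose by 0.62 ± 0.04 (3.01e-05) and 1.07 ± 0.04 (1.47e-06), so the hypoxia genes did not move together. In WM2664 at 6 h NR4A2 was at 0.11 ± 0.14 and ADM at 0.11 ± 0.09, so their means did not hold in every line. NDRG1 and SLC2A1, a glucose transporter, fell at 6 h, with differences of -0.51 ± 0.06 (0.000623) and -0.34 ± 0.06 (0.00274), which were -0.28 (0.166) and -0.07 (0.733) without scaling. BNIP3 and P4HA1, a collagen hydroxylase subunit, rose at 24 h by 0.48 ± 0.06 (0.000349) and 0.47 ± 0.09 (0.00419). Melanocyte factors fell in the same arrays, with MITF at -1.69 ± 0.06 (7e-07) and SOX10 at -2.01 ± 0.08 (1.58e-06) at 6 h. Of 7 tested melanocyte markers, 0 were higher and 3 lower at 6 h, and 0 higher and 4 lower at 24 h. Their summed intensity was 37595 and 39870 in SKMEL5 with A-485, against 47111 to 48741 with DMSO, 21960 and 18285 in WM2664 with A-485, against 32308 to 34746 with DMSO, and 392 and 545 in A375 with A-485, against 1264 to 1943 with DMSO. The A375 DMSO arrays read 1440 to 1943 at 6 h, where replicate 1 held SKMEL5 transcripts, and 1264 to 1347 at 24 h. The part of these changes in the clock gene values was not tested.

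The genes whose group means were most like those of a clock gene were ranked by Pearson correlation over the 12 group means, among 12123 other gene representatives. The groups share lines, so most of each correlation is a description of line levels. BHLHE41 was nearest to LYSET (r = 0.992) and TTYH2 (0.988), BHLHE40 to AGO4 (0.979) and KLHL36 (0.97), and PER3 to PYGL (0.973) and GBP2 (0.972). PER2 was nearest to SLC46A1 (0.969) and FAM241B (0.961), and CRY1 to LOC100630923 (0.961) and KLHL18 (0.957). NR1D2 was nearest to WWTR1 (0.924) and TCF7L2 (0.894), and DBP to MYC (0.909) and PLEKHF1 (0.903).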

How the data were processed

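Total RNA of 3 melanoma lines was hybridised to 18 arrays after Qiazol and RNeasy extraction and biotin labelling, per the labels' protocols. The authors deposited linear intensities, 1 value for each probe set on each array. How these were background corrected and scaled, and with which software, is not given in the sources used here. Of each array's values, 19.3% to 22.9% were below 0. The intensities were quantile scaled across arrays, raised to 32 and taken to log2 (R 4.3.3, limma 3.58.1). A group-means fit over 12 groups, with 6 residual and 2.09 prior degrees of freedom, gave 25 contrasts for 26385 probe sets with a mean log2 of at least 5.2. Groups came from titles and treatment labels. Probe sets were named from the platform annotation, in which 41091 had 1 symbol, 1801 several and 11721 none. The median standard error was 0.16 for a line and time, 0.09 for the mean of lines and 0.23 for differences of responses. The number of arrays limits this precision, and p-values cover the spread between the labelled samples, which may be technical. The fit was also run on simulated arrays with independent noise of the DMSO spread. Such a run cannot show whether a lone A-485 array varies like the DMSO pairs. Alternatives were other floors, scalings, filters and moderation, the deposited values, a replicate block, an additive fit and leaving out arrays. The clock genes and the gene lists were chosen with earlier results of these data known. Named were every member, from each list up to 4 called genes with the largest mean difference over lines at 6 h and at 24 h, and for each member the 2 genes most like it. The melanocyte markers and WDR5 were named besides.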

Additional observations from a re-analysis of the deposited data

Results flagged for a closer look

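All values here are differences between A-485 minus DMSO responses (log2), each from limma's test of the difference itself. A375 was at the floor for PER3, so it could not show a fall in that gene, and the BHLHE41 probe set 221530_s_at, used here, was dim but above the floor there. At DMSO intensities of 46.4 to 70.6 in A375, a BHLHE41 fall as large as that of SKMEL5 would have gone below the floor. The BHLHE41 differences between A375 and SKMEL5 are limited by this. Between 24 h and 6 h, the NR1D2 response in SKMEL5 differed by 1.76 (adjusted p = 0.0333), the PER3 response in SKMEL5 by -1.38 (0.00672) and the BHLHE40 response in A375 by 1.45 (0.00271). Between SKMEL5 and WM2664, BHLHE40 differed by 0.66 at 6 h (0.0389) and PER3 by -1.56 at 24 h (0.00328).

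Between A375 and SKMEL5 at 6 h, PER3 differed by 1.09 (adjusted p = 0.0217) and BHLHE41 by 1.56 (0.0188). At 24 h the same pair of lines differed by 1.46 for BHLHE40 (0.000222), 2.48 for PER3 (0.000162) and 1.10 for BHLHE41 (0.0391). Between A375 and WM2664, BHLHE40 differed by 0.84 at 6 h (0.00749) and 1.88 at 24 h (8.16e-05), CRY1 by -0.89 at 6 h (0.00877) and PER3 by 0.92 at 24 h (0.0259). Each rests on 1 A-485 array per line and time. With A375 at the floor, the PER3 differences from A375 give the size of the other line's fall alone. Without the 3 arrays that hold another line's transcripts, 3 of these 14 stayed called, those of BHLHE40 at 24 h for A375 against SKMEL5 and against WM2664 and that of PER3 at 24 h for A375 against SKMEL5.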

How the results depend on the processing

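Of 350 differences of the 14 probe sets, 110 were called and 28 of those stayed called under every alternative tried. Across lines and times, 31 A-485 calls became 19 with a floor of 64, 11 without scaling, 6 on deposited values with a floor of 1, 20 with a mean log2 of at least 6, 18 with 1 probe set per gene and 19 without the 3 arrays that stood apart, an alternative chosen after seeing the data. The 19 calls of the mean over lines became 10 without scaling, 9 on deposited values, 11 with 1 probe set per gene, 12 with the replicate number as a block and 5 with an additive fit of line and treatment. Of 10 calls for the change of response with time, 2 were left without scaling, 1 on deposited values, 6 with no filter and 1 without the 3 arrays. Of 19 line differences of the response there were 5 without scaling, 2 on deposited values, 12 with 1 probe set per gene and 7 without the 3 arrays. The 28 DMSO differences between lines became 16 with 1 probe set per gene, and the 3 between times became 0 without scaling, 0 on deposited values and 0 without the 3 arrays. Fewer probe sets or arrays lower such counts by construction; the cause of the other shifts was not tested. Leaving out 1 array at a time gave 23 to 31, 13 to 20, 4 to 12, 8 to 22, 26 to 31 and 2 to 5 calls in the same order. Signs turned for the mean over lines at 6 h of BHLHE40 (0.02 without scaling, 0.02 on deposited values, -0.38 to 0.04 with 1 array left out, turned by WM2664 A-485 6 h replicate 1), CRY1 (-0.01 to 0.44, turned by the same array) and PER3 (0.43 on deposited values). At 24 h they turned for BHLHE40 (-0.09 to 0.85, by A375 A-485 24 h replicate 1) and the dimmest tested BHLHE41 probe set (-0.89 to 0.10, by SKMEL5 A-485 24 h replicate 1), and in DMSO for NR1D2, SKMEL5 minus WM2664 (-0.21 to 0.23, by SKMEL5 DMSO 24 h replicate 1). Without scaling the share of called probe sets that were higher was 12.2% in A375 at 6 h (35.5% with scaling), 28.5% in SKMEL5 (53.7%), 71% in WM2664 (52.7%) and 12.9% in A375 (46.5%) at 24 h, and 85.6% for the mean at 6 h (54.6%). Differences between DMSO replicates 1 and 2, after scaling, correlated at -0.05 to 0.04 over 15 pairs of groups. The A-485 arrays are all replicate 1 and had no part in that check, so what they share in handling was not tested. Signal near the floor limits DBP, PER3 and the shared probe sets.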
